A study of Mus musculus with 4 samples.

Results

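Genes of red blood cell formation and of haem synthesis were measured in whole spleen RNA from 4 mice, 2 of them wild type and 2 with B cell leukaemia. The list of 34 genes was drawn up by name and role, and each gene was taken from the probe set whose annotated symbol is, or includes, that gene, with the highest mean over the 4 arrays where there were several. A probe set was found for 32 genes. Hbb-b1 and Hbb-bt share 1 set, so 31 probe sets stand for them among the 20029 annotated units of the table, a unit being 1 distinct symbol entry. Ahsp and Epb41 were not analysed here. The mice were of the 129Sv background, and all 4 were homozygous for a floxed allele of RBP-J. Wild type mice (RBP-J flox/flox;Ren1d+/+) were 80 and 81 days old and female, with spleens of 0.12 g and 0.16 g. Leukaemic mice (RBP-J flox/flox;Ren1dcre/cre) carried cre on both copies of the renin gene Ren1d, so that recombination follows the cells in which this gene has been active. Leukaemic replicate 1 was a female of 107 days with a spleen of 0.7 g, and leukaemic replicate 2 a male of 93 days with a spleen of 0.47 g. Genotype, age and spleen weight cannot be told apart from the leukaemia in this design.

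In mice the spleen makes red blood cells throughout life, and this activity can grow under anaemia or when the marrow is displaced. Erythroid precursors depend on the hormone erythropoietin and on the transcription factors GATA1 and KLF1, take up transferrin-bound iron, and build haem in a pathway that starts and ends in the mitochondrion. Haem then joins globin chains to form haemoglobin, while a skeleton of spectrin, ankyrin and their partners shapes the membrane.

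Each value is a log2 level as deposited, 1 per probe set and array, and 1 unit is a doubling. In whole spleen RNA, fewer cells of a type and less RNA per cell cannot be told apart, and a level is relative to the RNA of the sample, not to the organ. Array medians lay between 7.96 and 8.03. The precursor B cell markers followed the labels: 5 of 10 rose and 0 fell, among them Igll1 of the surrogate light chain by 5.47 (SE 0.14, limma adjusted p = 5.5e-05) and the recombinase gene Rag1 by 3.57 (SE 0.19, limma adjusted p = 0.000795). Over all units limma called 281 higher and 204 lower (356 and 151 after median centring). Without wild type replicate 2 it called none, with 1371 higher and 1861 lower at an unadjusted p under 0.05, and without wild type replicate 1 it called 38. Wild type replicate 2 stood apart from the other arrays in RNA of exocrine pancreas. The 12 acinar marker probe sets lay between 10.77 and 13.43 there and between 5.16 and 8.08 on the other arrays. By limma 0 of these 12 were called, and 0 had an unadjusted p under 0.05, with Pnliprp1 (-3.08, SE 1.59) and Cela1 (-1.79, SE 0.93) of smallest p. Against wild type replicate 1 alone these were -0.14 and -0.08. Member differences that moved by over 1.5 times without wild type replicate 2 are given with and without it. Leaving out wild type replicate 1 instead moved the members' median difference to -0.85, from -0.54 over all 4 mice. Which wild type mouse has the typical erythroid levels cannot be told from 2.

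Promoter sequences are shown because Gata1, Klf1 and Nfe2, all on the list, encode factors that bind short motifs at other members' genes. RefSeq windows (GRCm38.p6) matched 23 of the 32 genes. Motifs were searched on both strands in the 250 bases before the start: the GATA motif as AGATAA or TGATAA, the CACCC motif of KLF family factors as CCNCNCCC, and the NFE2 motif as TGANTCA. The CACCC letters also match many GC boxes, and matches may overlap. The GATA motif was present in 12 of 23 members (52.2%) and in 18.8% of the 27025 genes of the table. The CACCC motif was present in 13 of 23 (56.5%, against 48.5% of all genes) and the NFE2 motif in 2 of 23 (8.7%, against 7.82%). These are matches of letters, not measured binding.

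The 150 bases before the start are printed for 7 of these genes, 5′ to 3′ along the gene, with GATA and CACCC matches in capitals. Each of the 7 holds a match, so they do not stand for all members. Ppox, Urod, Epb42, Hba-a1, Trim10 and Tfrc hold neither motif in this stretch. The stretch of Alas2 lies at chrX:150547267-150547416 on the plus strand. The stretch of Epor lies at chr9:21963577-21963726 on the minus strand. The stretch of Icam4 lies at chr9:21029282-21029431 on the plus strand. The stretch of Klf1 lies at chr8:84901832-84901981 on the plus strand. The stretch of Kel lies at chr6:41704326-41704475 on the minus strand. The stretch of Rhag lies at chr17:40810999-40811148 on the plus strand. The stretch of Hbb-bt lies at chr7:103813924-103814073 on the minus strand. Alas2, Epor and Icam4 carry both motifs within this stretch. Klf1 and Rhag carry 1 GATA match each, Kel carries 2, and Hbb-bt carries a CACCC match alone.
Alas2: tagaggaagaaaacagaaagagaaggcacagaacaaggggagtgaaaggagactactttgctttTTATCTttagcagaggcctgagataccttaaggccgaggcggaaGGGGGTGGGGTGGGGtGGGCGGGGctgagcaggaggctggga
Epor: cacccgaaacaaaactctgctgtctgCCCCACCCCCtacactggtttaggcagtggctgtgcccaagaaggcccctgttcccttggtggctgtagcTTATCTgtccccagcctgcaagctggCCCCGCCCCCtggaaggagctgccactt
Icam4: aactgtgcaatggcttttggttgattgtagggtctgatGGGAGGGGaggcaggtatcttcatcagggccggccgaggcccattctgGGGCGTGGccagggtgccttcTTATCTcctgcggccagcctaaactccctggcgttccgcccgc
Klf1: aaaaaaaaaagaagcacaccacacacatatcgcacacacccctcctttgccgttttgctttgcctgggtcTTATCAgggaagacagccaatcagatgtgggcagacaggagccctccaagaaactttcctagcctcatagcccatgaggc
Kel: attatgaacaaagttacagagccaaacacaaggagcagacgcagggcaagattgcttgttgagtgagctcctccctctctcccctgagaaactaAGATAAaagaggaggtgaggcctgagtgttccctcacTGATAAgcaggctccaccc
Rhag: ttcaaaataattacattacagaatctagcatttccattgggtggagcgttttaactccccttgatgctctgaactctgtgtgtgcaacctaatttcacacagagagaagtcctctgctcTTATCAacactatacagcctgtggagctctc
Hbb-bt: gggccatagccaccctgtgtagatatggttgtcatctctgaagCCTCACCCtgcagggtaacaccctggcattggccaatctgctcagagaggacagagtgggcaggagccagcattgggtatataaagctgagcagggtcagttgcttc

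Leukaemic spleens had no member that passed the test. By limma with adjustment over all units, 0 of 31 probe sets were called lower, against 1.02% of all units, and 0 were called higher, against 1.40%. At an unadjusted limma p under 0.05, 13 of 31 were lower, against 10.6% of all units, and 0 were higher, against 9.94%. That count of lower members fell to 1 without wild type replicate 2, against 9.29% of all units. It was 26 without wild type replicate 1 (11.9% of all units), 14 with leukaemic replicate 1 left out (5.07%) and 6 with leukaemic replicate 2 left out (6.74%). The smallest limma adjusted p among the members was 0.113. The differences had nearly all the same sign: 30 of 31 were negative (29 after centring arrays on their medians and 31 after quantile normalization), against 56.2% of all units. Their median was -0.54, against -0.03 over all units, with a range from -0.84 (Tmod1) to 0.00 (Tfrc). Both leukaemic arrays lay under both wild type arrays in 24 of 31 sets, against 26.0% of all units.

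The size of these differences depended on wild type replicate 2. It held the highest value of the 4 arrays in 29 of 31 sets, against 38.6% of all units, and was more than 0.5 above the next highest array in 17, against 1.29% of all units. Between the wild type mice the members differed by a median of 0.55, replicate 2 higher, while all units differed by 0.04. This gap was of the same size as the median difference between the groups. Against wild type replicate 1 alone, the leukaemic mean was lower by a median of 0.21 (-0.21, against 0.03 for all units). Against replicate 2 alone the median was -0.85, against -0.08. Most signs stayed. Without replicate 2, 30 of 31 differences were still negative, against 44.4% of all units. Both leukaemic arrays lay under wild type replicate 1 in 24 sets, against 34.1% of all units. The relation of the pancreatic RNA in wild type replicate 2 to its erythroid levels was not tested.

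**Figure D1:**
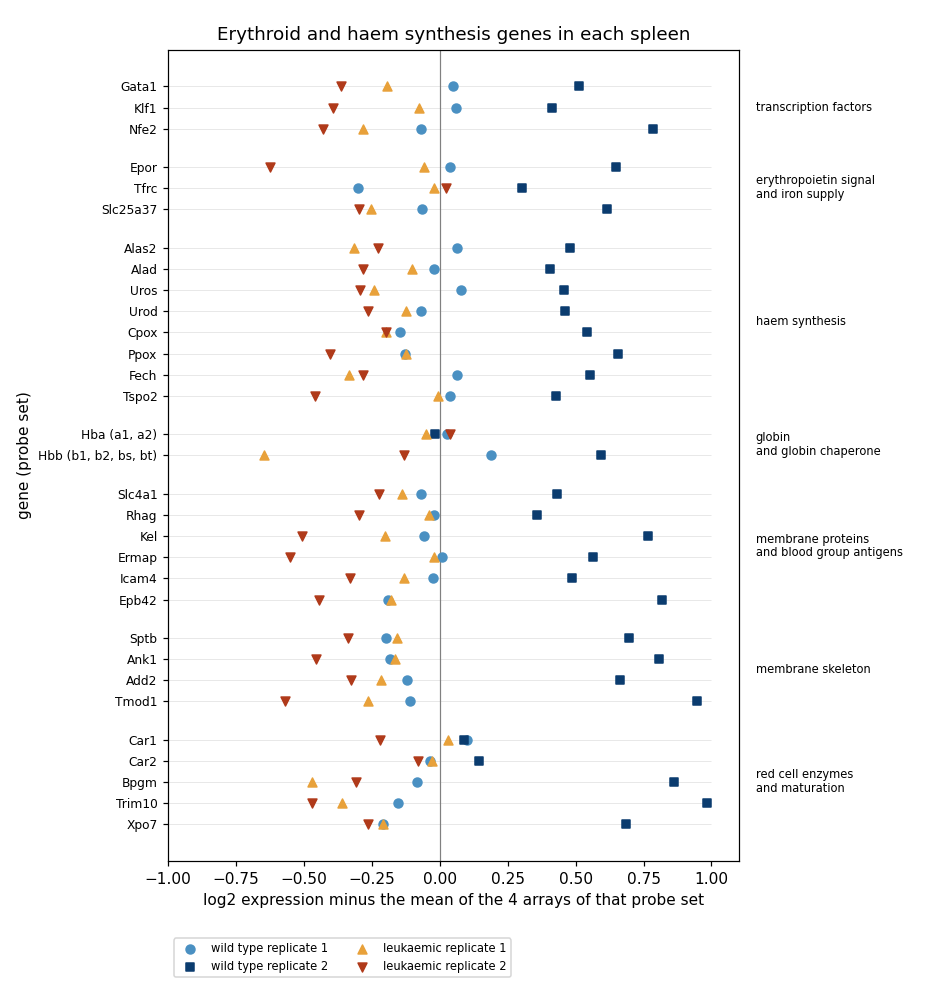
Each row is 1 probe set, grouped by role, and each point is 1 mouse, placed by its log2 value minus the mean of the 4 arrays for that probe set. Wild type replicate 2 (dark squares) is the highest array in 29 of the 31 rows, against 38.6% of all units. Both leukaemic mice lie below wild type replicate 1 (blue circles) in 24 rows, against 34.1% of all units, at a distance that varies between rows.

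**Figure D2:**
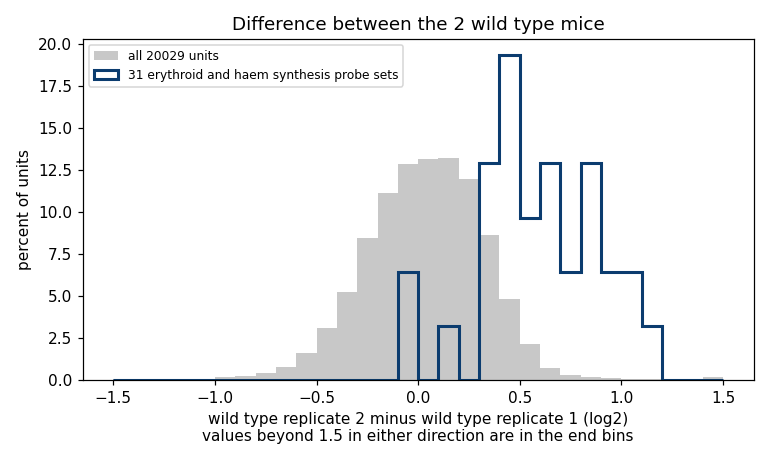
Percent of units in bins of the log2 difference between the 2 wild type mice, replicate 2 minus replicate 1, for all 20029 units (grey) and for the 31 erythroid and haem synthesis probe sets (outline). The median is 0.55 for the erythroid sets and 0.04 for all units.

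All 3 transcription factors were lower in both leukaemic mice than in either wild type mouse, against 26.0% of all units, without passing the test. Gata1, the master regulator of the lineage, stood at 10.34 and 10.80 in wild type replicates 1 and 2, in that order here and throughout, against 10.10 and 9.93 in leukaemic replicates 1 and 2. Its difference was -0.56 (SE 0.19, limma adjusted p = 0.158), and -0.33 without wild type replicate 2. Nfe2, a bZIP subunit that acts on globin gene control regions, stood at 9.82 and 10.67 in the wild type mice, against 9.60 and 9.46 in the leukaemic mice. Its arrays did not overlap between groups, but the gap between the wild type mice (0.85) was wider than the group difference of -0.72 (SE 0.27, limma adjusted p = 0.197). Without wild type replicate 2 it was -0.29. Klf1, which activates the adult beta globin gene, differed by -0.47 (SE 0.19), and by -0.30 without that mouse.

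Among genes of the erythropoietin signal and of iron supply, Epor and Slc25a37 were lower and Tfrc was level. Epor, the erythropoietin receptor, stood at 10.12 and 10.73 in the wild type mice, against 10.02 and 9.46 in the leukaemic mice, a difference of -0.68 (SE 0.26, limma adjusted p = 0.205) that was -0.38 without wild type replicate 2. Leukaemic replicate 1 was close to wild type replicate 1, while replicate 2 was the lowest array, and this gap of -0.57 was the widest between the leukaemic mice among the members. Slc25a37, the mitoferrin that carries iron into mitochondria of erythroid cells, stood at 11.75 and 12.43 in the wild type mice, against 11.57 and 11.52 in the leukaemic mice. Its difference was -0.55 (SE 0.23, limma adjusted p = 0.235), and -0.21 without wild type replicate 2.

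Tfrc, the transferrin receptor, is used by dividing cells of many kinds as well as by erythroid precursors. It stood at 11.24 and 11.84 in the wild type mice, against 11.52 and 11.56 in the leukaemic mice, so both leukaemic values lay between the wild type ones. The difference was 0.00 with a 95% interval from -0.50 to 0.50. Against wild type replicate 1 it was 0.30, and Tfrc was the 1 member with both leukaemic arrays above that mouse. Dividing cell markers had a median difference of 0.50 over 9 genes, with 1 called higher (Bub1, by 0.996, SE 0.15, limma adjusted p = 0.033). Their median was 0.76 against wild type replicate 1 alone and 0.27 against replicate 2 alone. Their part in the Tfrc level was not tested.

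No haem synthesis gene passed the test, and their values leaned the same way along the pathway. All 8 differences of this group were negative, from -0.62 to -0.39. In 7 of 8, both leukaemic arrays lay under both wild type arrays, against 26.0% of all units. Fech, ferrochelatase, which inserts iron in the last step, stood at 11.11 and 11.60 in the wild type mice, against 10.71 and 10.76 in the leukaemic mice. Its difference of -0.62 (SE 0.19, limma adjusted p = 0.132) had a 95% interval from -1.06 to -0.17, and without wild type replicate 2 it was -0.37. Uros, uroporphyrinogen III synthase, stood at 10.22 and 10.60 in the wild type mice, against 9.90 and 9.85 in the leukaemic mice, a difference of -0.54 (SE 0.17, limma adjusted p = 0.139), or -0.35 without that mouse. Alas2, the erythroid enzyme of the first and rate-limiting step, stood at 12.24 and 12.65 in the wild type mice, against 11.86 and 11.95 in the leukaemic mice. Its difference was -0.54 (SE 0.18, limma adjusted p = 0.147), and -0.34 without wild type replicate 2. In these 3 genes the leukaemic mice were close together, and wild type replicate 1 was above both.

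In Ppox, Cpox, Urod and Alad, wild type replicate 1 was closer to the leukaemic mice than in Uros, Alas2 and Fech. Ppox, protoporphyrinogen oxidase, had the widest gap between the wild type mice of this group (0.78), and wild type replicate 1 (10.461) was level with leukaemic replicate 1 (10.463). Its difference was -0.53 (SE 0.26), and -0.14 without wild type replicate 2. Cpox, coproporphyrinogen oxidase, differed by -0.40 over all mice and by -0.05 without wild type replicate 2. Urod, the decarboxylase before it, differed by -0.39 and by -0.13 without that mouse, and Alad, the second enzyme, by -0.39 and -0.17. Tspo2, an erythroid relative of the mitochondrial translocator protein, differed by -0.46 (SE 0.21), and by -0.27 without wild type replicate 2, with leukaemic replicate 2 lower than replicate 1 by 0.45 (-0.45). Of the other haem and iron genes, 0 of 20 measured were called by limma. At an unadjusted limma p under 0.05, 6 were lower, against 10.6% of all units, and 2 higher, against 9.94%. The leading ones were Slc40a1, the iron exporter ferroportin (-0.76, SE 0.15, limma adjusted p = 0.056), and Hmox1, which breaks haem down (-0.80, SE 0.18, limma adjusted p = 0.066). Both are also markers of red pulp macrophages.

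The globin probe sets are annotated to several near-identical genes each and cannot separate them. The set for Hba-a1 and Hba-a2, the adult alpha globins, stood at 13.67 and 13.62 in the wild type mice, against 13.59 and 13.68 in the leukaemic mice. The highest value of any probe set on these arrays was 13.68 to 13.69. Its difference was -0.01 (95% interval -0.33 to 0.31), or -0.03 without wild type replicate 2, and whether this signal could still follow a change so near the top of the scale was not tested. A second alpha globin set stood at 13.58 and 13.63 in the wild type mice, against 13.37 and 13.49 in the leukaemic mice. The set shared by Hbb-b1, Hbb-b2, Hbb-bs and Hbb-bt, the beta globins, stood at 11.76 and 12.16 in the wild type mice, against 10.92 and 11.44 in the leukaemic mice. With a difference of -0.78 (SE 0.22, 95% interval -1.31 to -0.25), it had the smallest adjusted p of the members (limma adjusted p = 0.113). Without leukaemic replicate 2 the difference was -1.04, and without leukaemic replicate 1 it was -0.52. In both fits limma took the variance from all units together. The difference was -0.98 without wild type replicate 1 and -0.58 without wild type replicate 2. Between the leukaemic mice beta globin ran against most other members, replicate 2 being higher by 0.52.

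Differences of membrane proteins and blood group antigens lay between -0.71 and -0.34. In 5 of 6, both leukaemic arrays lay under both wild type arrays, against 26.0% of all units. Kel, which carries the Kell blood group antigens, stood at 10.82 and 11.65 in the wild type mice, against 10.68 and 10.38 in the leukaemic mice, a difference of -0.71 (SE 0.27, limma adjusted p = 0.207), or -0.29 without wild type replicate 2. Ermap, which carries the Scianna antigens, stood at 11.48 and 12.03 in the wild type mice, against 11.45 and 10.91 in the leukaemic mice, a difference of -0.57 (SE 0.25, limma adjusted p = 0.255), or -0.30 without wild type replicate 2. Leukaemic replicate 1 of Ermap was almost level with wild type replicate 1, so the difference rested on wild type replicate 2 and leukaemic replicate 2. Slc4a1, the anion exchanger band 3, differed by -0.36 (SE 0.19), and by -0.11 without that mouse. Rhag, the Rh-associated glycoprotein, differed by -0.34 (SE 0.18), and by -0.15 without it. Icam4, the Landsteiner-Wiener antigen, differed by -0.46 (SE 0.20), and by -0.21 without it. Epb42, which ties band 3 to ankyrin, differed by -0.63 (SE 0.31), but by -0.12 without wild type replicate 2.

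The membrane skeleton showed the widest median gap between the wild type mice of any role group, 0.94. Tmod1, which caps the short actin filaments of the skeleton, stood at 10.02 and 11.07 in the wild type mice, against 9.86 and 9.55 in the leukaemic mice. Its difference of -0.84 (SE 0.33, limma adjusted p = 0.210) was the largest of the members, and was -0.31 without wild type replicate 2. Without leukaemic replicate 1 it was -0.99, and without leukaemic replicate 2 -0.69, again with the variance taken from all units together. A second Tmod1 set differed by -0.30 (SE 0.30), with leukaemic values of 8.60 and 8.43 between the wild type ones of 8.34 and 9.29. Add2, the beta subunit of adducin, stood at 9.52 and 10.30 in the wild type mice, against 9.42 and 9.31 in the leukaemic mice, a difference of -0.54 (SE 0.25, limma adjusted p = 0.294), or -0.15 without wild type replicate 2. Sptb, beta spectrin, and Ank1, ankyrin, differed by -0.50 (SE 0.28) and -0.62 (SE 0.31). In both genes leukaemic replicate 1 was slightly above wild type replicate 1, and without wild type replicate 2 the differences were -0.05 and -0.13.

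Enzymes and late maturation genes went from level to among the most different. Trim10, a RING finger protein of terminal erythroid differentiation, stood at 10.12 and 11.26 in the wild type mice, against 9.91 and 9.80 in the leukaemic mice. The wild type mice thus differed by 1.14, or 2.20-fold, the widest such gap of the members, beside a group difference of -0.83 (SE 0.34, limma adjusted p = 0.226). That difference was -0.26 without wild type replicate 2. Bpgm, which makes the 2,3-bisphosphoglycerate that lowers the oxygen affinity of haemoglobin, stood at 10.18 and 11.13 in the wild type mice, against 9.80 and 9.96 in the leukaemic mice. Its difference was -0.78 (SE 0.29, limma adjusted p = 0.196), and -0.30 without that mouse. Xpo7, a nuclear exporter that acts while erythroblast nuclei condense, differed by -0.48 (SE 0.28) and by -0.03 without wild type replicate 2.

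The carbonic anhydrases Car1 and Car2, which interconvert carbon dioxide and bicarbonate, stood apart from the other enzymes. Car1 stood at 13.0002 and 12.9889 in the wild type mice, against 12.93 and 12.68 in the leukaemic mice, and Car2 at 12.72 and 12.90, against 12.72 and 12.67. Their differences were -0.19 (95% interval -0.55 to 0.17) and -0.11 (-0.45 to 0.23). Without wild type replicate 2 they were -0.20 and -0.02. Alpha globin, Car1 and Car2 were the 3 probe sets of highest mean, a grouping made after their values were seen. Between the wild type mice they differed by -0.04, -0.01 and 0.18, while the other 28 sets differed by 0.35 to 1.14, each higher in replicate 2.

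**Figure D3:**
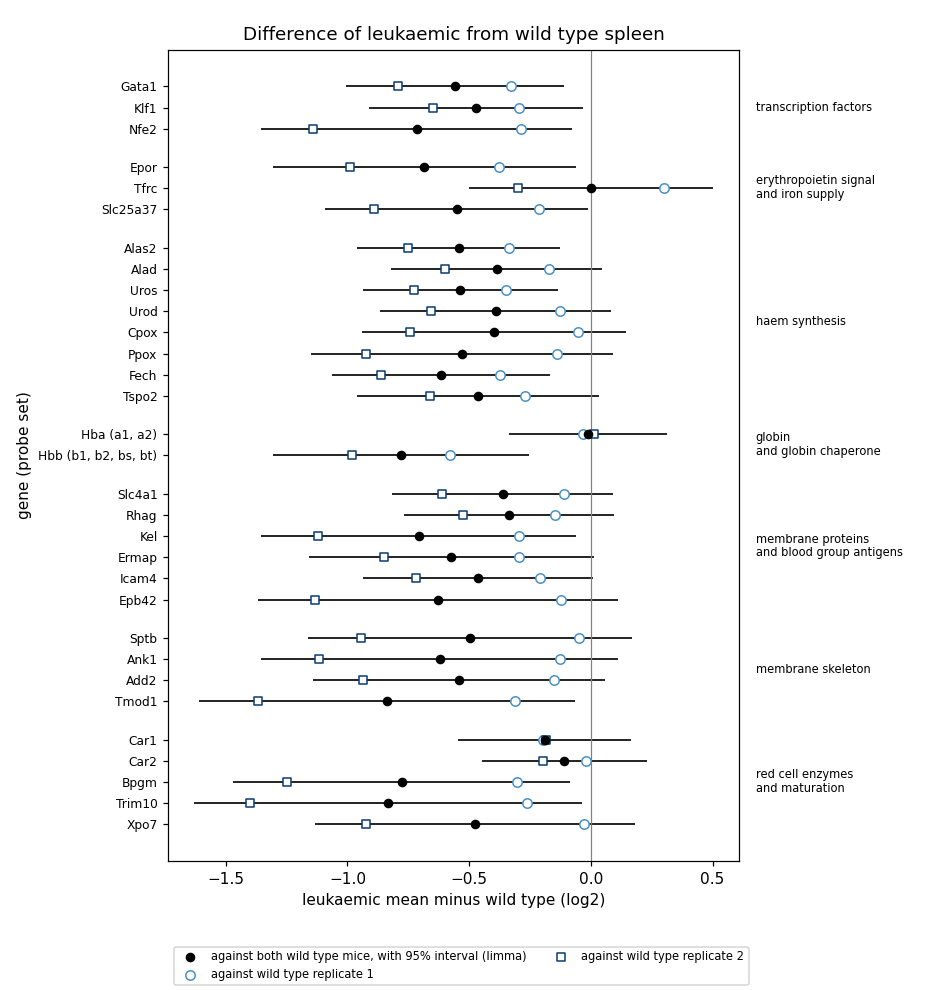
For each probe set, the black point is the leukaemic mean minus the mean of both wild type mice with its 95% interval from limma, and the open symbols give the same leukaemic mean minus 1 wild type mouse. Against wild type replicate 1 (circles) the differences have a median of -0.21, and against replicate 2 (squares) of -0.85.

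The leukaemic mice differed from each other by less than the wild type mice. Leukaemic replicate 2 was below replicate 1 in 25 of 31 sets (80.6%, against 55.5% of all units), by a median of -0.15. These mice also differed in sex, age and spleen weight. Relative to the wild type mean the member medians were -0.41 and -0.59 in leukaemic replicates 1 and 2.

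Further erythroid genes outside the list also had wild type replicate 2 as the highest array in 25 of 28 cases, against 38.6% of all units. Of 33 listed, 28 probe sets not shared with the members were tested. By limma 0 were called. At an unadjusted limma p under 0.05, 8 were lower, against 10.6% of all units, and 0 higher, against 9.94%. Their median difference was -0.35, and -0.15 against wild type replicate 1 alone. Wild type replicate 2 was above replicate 1 in 27 of the 28, against 55.6% of all units, by a median of 0.45. The 2 of smallest p were Slc14a1, the red cell urea transporter and Kidd antigen (-0.67, SE 0.15, limma adjusted p = 0.073), and Lmo2, which joins GATA1 and TAL1 in 1 complex (-0.54, SE 0.17, limma adjusted p = 0.146).

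Marker lists of other cell types differed in how far wild type replicate 2 stood from replicate 1. Platelet and megakaryocyte markers, from the lineage closest to the erythroid one, had a median difference of -0.71. Of these, 1 of 8 was called (Gp9, -0.75, SE 0.14, limma adjusted p = 0.049). At an unadjusted limma p under 0.05, 8 of 8 were lower, against 10.6% of all units. Their median was -0.67 against wild type replicate 1 alone, and the wild type mice differed by -0.07. Red pulp and erythroblastic island macrophage markers had a median difference of -0.58 with 0 of 10 called by limma (7 lower at an unadjusted p under 0.05), and -0.68 against wild type replicate 1. The 2 of smallest p were Timd4 (-0.91, SE 0.18, limma adjusted p = 0.052) and Slc40a1. Neutrophil markers fell in 3 of 8 cases, led by Camp (-1.24, SE 0.21, limma adjusted p = 0.041) and Csf3r (-1.22, SE 0.19, limma adjusted p = 0.034), and T cell markers in 6 of 9, led by Cd3g (-1.78, SE 0.33, limma adjusted p = 0.049) and Cd3e (-1.70, SE 0.29, limma adjusted p = 0.039). Between the wild type mice these 2 lists differed by a median of 0.02 and -0.46. For dividing cell markers the wild type gap was 0.401, replicate 2 higher. Against wild type replicate 1 alone the neutrophil and T cell medians were -1.21 and -1.77, beside -1.23 and -1.57 against both wild type mice. The fit without wild type replicate 2 called no unit at all, so it cannot tell which of these calls depend on that mouse. The part of other cell types in the members' differences was not tested.

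**Figure D4:**
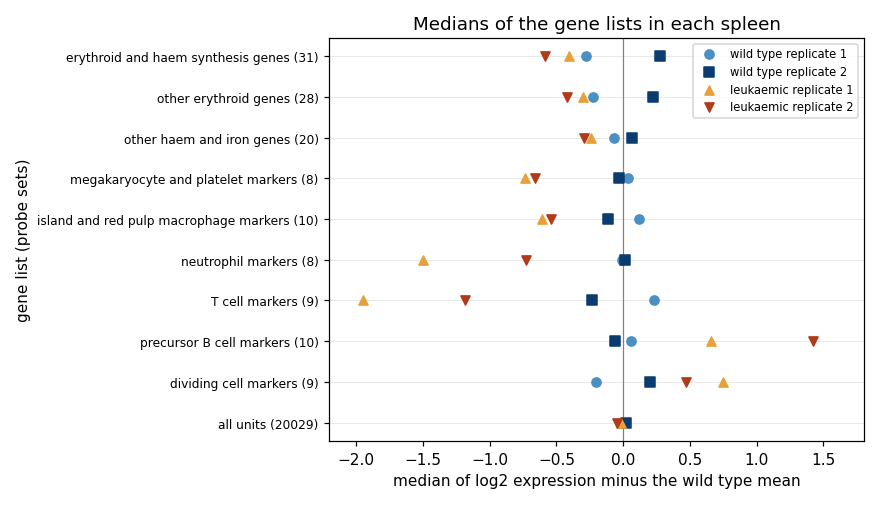
Median log2 level of each gene list in each mouse relative to the mean of the wild type mice, with the number of probe sets in brackets. The erythroid list has its leukaemic medians at -0.41 and -0.59 and its wild type mice 0.55 apart, while neutrophil markers have wild type mice 0.02 apart.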

How the data were processed

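Total RNA of 4 spleens, 1 mouse per array, was hybridised to whole-transcript arrays. The authors deposited log2 values, 1 per probe set and array. The submitters' processing notes name RMA, R 2.15.0 and limma 3.12.1, and their settings were not given. Of 23309 probe sets, 20729 have 1 symbol in the platform annotation, 1174 several and 1406 none. Each distinct symbol entry was represented by its set of highest 4-array mean. The group difference was fitted without covariates by lmFit and eBayes of limma 3.58.1 under R 4.3.3, with Benjamini-Hochberg adjustment over 20029 units and a call at 0.05. The fit had 2 residual and 4.87 prior degrees of freedom, and the scripts were tested on simulated data. No exact permutation test can pass with 2 mice per group, and the number of arrays limits the precision. SE and intervals are those of the moderated fit.

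Promoter sequences are from RefSeq, assembly GRCm38.p6. Members and lists were chosen with earlier results of these data known. All 4 values are given for the 2 members of smallest p in each role group, for globins, and for the widest gaps within a group. Those of Tfrc, Alas2, Car1 and Car2 were added after they were seen. Alternatives were median centring, quantile normalization, a filter on dim sets, the variance prior, the choice of sets and units, a replicate block, the promoter window, and each mouse left out.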

Additional observations from a re-analysis of the deposited data

How the results depend on the processing

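No member was called under centring, quantile normalization, the dim filter or a trend and robust prior. None was called with averaged probe sets, all probe sets, or entries with 1 symbol only (29 of the sets). At an unadjusted limma p under 0.05, 7 members were lower after centring (1580 of 20029 units) and 6 after quantile normalization (2149 of 20029). With the dim filter 11 were lower (1831 of 13352 units), and with the trend and robust prior 12 (2068 of 20029). Averaged sets, all sets and 1-symbol entries each gave 12 lower, against 2125 of 20029, 2293 of 23309 and 2068 of 19297. The members' median difference stayed between -0.57 and -0.47 under all these settings. It ranged from -0.85 without wild type replicate 1 to -0.21 without wild type replicate 2, with -0.54 over all 4 mice. With a mouse left out, 0 to 1 members were called: Tmod1 without leukaemic replicate 1 and beta globin without leukaemic replicate 2. Calls over all units, 485 over all 4 mice, were 244 after quantile normalization, 992 with the trend and robust prior, and 0 to 1072 with a mouse left out, 0 without wild type replicate 2. In that fit limma gave 1371 higher and 1861 lower at an unadjusted p under 0.05.

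The sign of a value near 0 turned in 2 genes. Tfrc was at -0.030 after quantile normalization and between -0.30 and 0.30 with a mouse left out. Hba-a1 was at 0.054 after median centring and between -0.055 and 0.033 with a mouse left out.

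Replicate numbers are shared between the groups, but the mice are separate animals. Deviations of same-numbered mice correlated at -0.09 over all units, so the numbers were not taken as pairs. With the number as a replicate block, 6 of 31 members were called lower (Nfe2, beta globin, Kel, Tmod1, Bpgm and Trim10) and 0 higher. Of 20029 units, 1836 were called, 985 lower and 851 higher. That fit had 1 residual degree of freedom and 22.81 prior ones. Members with both leukaemic arrays under the wild type were 24 without wild type replicate 2, against 34.1% of all units. Without wild type replicate 1 they were 30, and the share of all units was not counted there. The whole promoter window gave 12, 16 and 2 members with the GATA, CACCC and NFE2 motifs.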
